A study of Mus musculus with 9 samples.

Results

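The Reg genes encode small secreted proteins with a C-type lectin fold, and the family studied here was set by name as the 6 mouse genes Reg1, Reg2, Reg3a, Reg3b, Reg3d and Reg3g. All 6 were found, of 23235 gene symbols in the tables. RNA was sequenced from whole pancreas of mouse embryos at stage e15.5, in 9 libraries of 3 genotypes at Blinc1, a long noncoding RNA gene beside the islet factor gene Nkx2-2. The groups were 3 Blinc1-/- libraries (knockout), 3 Blinc1+/- libraries (heterozygote) and 3 Blinc1+/+ libraries (wild type). All embryos shared a mixed C57BL/6 and 129Sv background and had no other allele or treatment on their labels. The labels neither describe the mutant allele nor state that the 3 libraries of a genotype are independent embryos. The p-values below therefore speak for the spread among these libraries, part of which may be technical. Levels are in FPKM, which divide fragments by transcript length and library depth and can be compared between genes.

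As background, Reg proteins are made by acinar cells of the exocrine pancreas and by epithelium of the gut. Reg1 and Reg2 are the proteins of pancreatic juice also called lithostathines, while Reg3b, the pancreatitis-associated protein, and Reg3g are antibacterial lectins of the intestine. Reg3d is the mouse relative of a hamster protein named for islet neogenesis, and Reg3a is a further member of the type 3 branch. In adult tissue the genes are known for strong induction in pancreatitis and infection, with IL-6 and IL-22 acting through STAT3, and Extl3 has been proposed as a receptor.

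The 6 genes lie in 1 cluster on mm9 chromosome 6, from 78320879 to 78418868, a span of 98.0 kb that holds 6 genes of the tables, all members. All are protein coding in the annotation of the same assembly. In order they are Reg3b (78320879 to 78323460), Reg3d (78325868 to 78328859), Reg3a (78330703 to 78333833), Reg2 (78355149 to 78358091), Reg1 (78375977 to 78378660) and Reg3g (78416262 to 78418868). Reg3d and Reg3g are on the minus strand and the other 4 on the plus strand. Coding sequences of Reg1 and Reg2, the closest pair, were 82.5% identical over 498 aligned bases, and those of Reg3b and Reg3g 76.4% identical over 525. Of all windows of 50 bases in the Reg1 transcript, 0.552% matched the Reg2 transcript with at most 4 mismatches, the number the submitters' alignment allowed, and 1.97% of Reg3b windows matched Reg3g. All 15 pairs of members were compared, and for the remaining ones the share was 0%. Read length is not given in the sources used here, and 50 bases was taken for this check.

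Promoters are shown for Reg1 and Reg3d, which carried nearly all family RNA, and for Reg2, the closest paralog of Reg1, which was near 0. Each runs from 250 bases before to 50 after the transcription start in RefSeq (GRCm38.p6) and was found once, unchanged, on mm9 chromosome 6. The Reg1 promoter is at chr6:78375727-78376026 on the plus strand, that of Reg2 at chr6:78354899-78355198 on the plus strand and that of Reg3d at chr6:78328810-78329109 on the minus strand. Capitals mark matches on either strand to CANCTG, the E-box form, and to TGGGAA, the core of RBPJ sites, which together form the site bound by the acinar factor complex of Ptf1a and Rbpjl.
Reg1: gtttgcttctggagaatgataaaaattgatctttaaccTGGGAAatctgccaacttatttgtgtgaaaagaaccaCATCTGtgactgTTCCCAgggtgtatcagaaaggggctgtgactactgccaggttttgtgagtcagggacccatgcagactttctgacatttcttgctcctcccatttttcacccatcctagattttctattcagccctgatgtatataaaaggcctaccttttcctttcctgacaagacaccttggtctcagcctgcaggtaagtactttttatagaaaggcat
Reg2: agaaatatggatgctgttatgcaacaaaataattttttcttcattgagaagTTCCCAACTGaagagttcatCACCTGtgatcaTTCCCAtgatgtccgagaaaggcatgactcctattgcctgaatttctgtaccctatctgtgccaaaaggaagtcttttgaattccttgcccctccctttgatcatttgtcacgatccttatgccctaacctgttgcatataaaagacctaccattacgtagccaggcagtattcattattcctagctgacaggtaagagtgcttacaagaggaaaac
Reg3d: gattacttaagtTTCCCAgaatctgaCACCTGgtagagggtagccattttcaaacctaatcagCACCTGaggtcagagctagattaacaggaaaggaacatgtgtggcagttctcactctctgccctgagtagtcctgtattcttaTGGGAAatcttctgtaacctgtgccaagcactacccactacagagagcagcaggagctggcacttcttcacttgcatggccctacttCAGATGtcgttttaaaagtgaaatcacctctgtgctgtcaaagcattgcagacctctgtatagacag
In Reg1 and in Reg2 a CANCTG was followed after 6 bases by TTCCCA, the reverse complement of TGGGAA, and in Reg3d TTCCCA preceded a CACCTG by 8 bases. In the first capital run of Reg2 the 2 motifs overlap. The 2 motifs within 20 bases of each other without overlap, a spacing chosen after the sequences were seen, were found in these 3 of the 6 members and in 3.01% of 32544 mouse promoters of the same length. Alone, CANCTG was in 5 members and 51.5% of promoters, and TGGGAA in 5 members and 25.4% of promoters. TATAAA was in 4 members (Reg1, Reg2, Reg3b and Reg3g) and 13.6% of promoters. TTCNNNGAA, the form of STAT sites, was in 2 members (Reg3b and Reg3d) and 8.33% of promoters. CAAGGNCA, the form bound by Nr5a2, was in 0 members and 6.68%. These are matches of letters only, and the pair was present both in the most abundant member and in Reg2. The TTCNNNGAA of Reg3d overlaps its upstream TTCCCA.

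**Figure D1:**
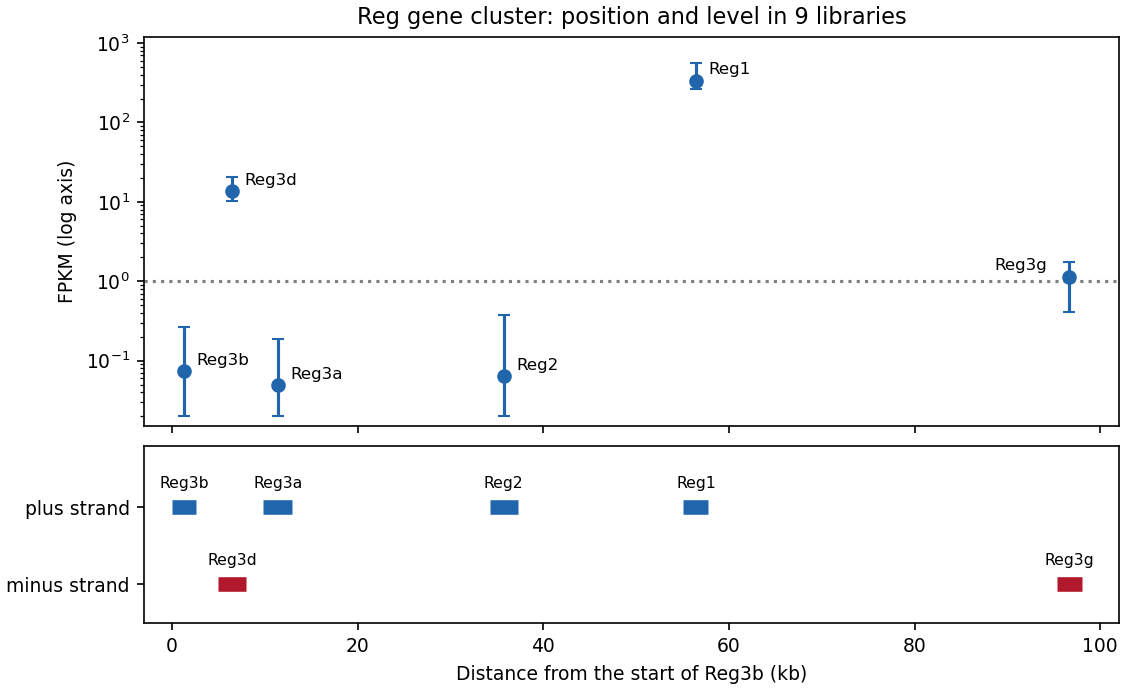
Reg cluster drawn to scale, in kb from the start of Reg3b, with each gene as a bar on its strand below, and above it the mean FPKM over 9 libraries (point) with the lowest and highest library (bars) on a log axis. A lowest value of 0 is drawn at 0.02, and the dotted line marks 1 FPKM. Reg1 and Reg3d stand above 10 FPKM, Reg3g near 1, and Reg2, Reg3a and Reg3b below 0.4.

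Levels fell into 4 tiers, Reg1, then Reg3d, then Reg3g, then the other 3, and this order held within each of the 9 libraries. Reg1 averaged 336 FPKM over the 9 libraries and ranked 204 of 23231 genes by mean level. Reg3d averaged 13.5 FPKM (rank 6066), Reg3g 1.14 FPKM (rank 12885), and Reg2, Reg3a and Reg3b 0.0636, 0.0487 and 0.0745 FPKM. Reg1 made up 94.2% to 96.4% of the family's summed FPKM in each library, and its level was 18 to 29.4 times that of Reg3d.

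Reg1, the most abundant member, measured 283, 552 and 360 FPKM in knockout replicates 1, 2 and 3. The heterozygote libraries held 265, 290 and 322 FPKM and the wild-type libraries 323, 275 and 352 FPKM. Knockout replicate 2 stood far above every other library, knockout replicate 3 was just above the highest wild type, and knockout replicate 1 lay inside the wild-type range, so the groups overlapped. Group means were 399 ± 139 FPKM in knockouts, 292 ± 28.5 in heterozygotes and 316 ± 38.7 in wild types (SD, n = 3 each). In order, knockout was highest, then wild type and then heterozygote, and no neighbouring means differed by more than the larger SD of the 2 groups. These levels rest on 3178 to 8364 fragments per library, so counting error is small beside the spread between knockouts.

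Reg3d measured 13.04, 20.59 and 13.73 FPKM in knockouts, 11.01, 11.56 and 17.9 FPKM in heterozygotes, and 11.84, 10.16 and 11.94 FPKM in wild types. All 3 knockouts were above all 3 wild types, by as little as 13.04 against 11.94 FPKM, and the deposited confidence bounds of those libraries (11.17 to 14.91 and 10.09 to 13.79) overlap. Knockout replicate 2 and heterozygote replicate 3 were the high libraries. Means were 15.8 ± 4.18 FPKM in knockouts, 13.5 ± 3.83 in heterozygotes and 11.3 ± 1 in wild types (SD, n = 3 each).

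Reg3g, the antibacterial lectin gene, measured 1.06, 1.18 and 1.65 FPKM in knockouts, 1.32, 0.414 and 1.76 FPKM in heterozygotes, and 0.831, 0.929 and 1.14 FPKM in wild types. Only 6 to 22 fragments stand behind each value, and the groups overlapped. Means were 1.3 ± 0.313 FPKM in knockouts, 1.16 ± 0.686 in heterozygotes and 0.967 ± 0.159 in wild types (SD, n = 3 each).

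Reg2, Reg3a and Reg3b were near 0 in every group, and none reached 1 FPKM in any library. Reg2 had 0.380 FPKM in knockout replicate 2 and 0.192 FPKM in knockout replicate 3, from 5 and 2 fragments, and was listed at 0 in knockout replicate 1, in all 3 heterozygotes and in all 3 wild types. Knockout replicates 2 and 3 were also the libraries highest for Reg1, its closest paralog, at 552.5 and 360.2 FPKM. Whether Reg1 reads contributed to the Reg2 values was not tested. Reg3b, the pancreatitis-associated protein gene, had 0.269 FPKM in knockout replicate 2, 0.0847 in knockout replicate 3, 0.246 in heterozygote replicate 3 and 0.0710 in wild-type replicate 1, from 1 to 4 fragments each, and was listed at 0 in the other 5 libraries. Reg3a was at 0.185 FPKM in knockout replicate 2, at 0.125 in heterozygote replicate 2 and at 0.129 in wild-type replicate 3, and was listed at 0 in the other 6. Over all 9 libraries Reg2 had 7 fragments, Reg3a 6.44 and Reg3b 9. A single fragment is worth 0.0623 to 0.096 FPKM for these genes, so each value rests on a few fragments at most. In the same test without the filter on low values (18965 genes, 0 passing), Reg2 was the 1 member under an unadjusted p of 0.05, both in knockouts against wild types (limma adjusted p = 0.66) and in knockouts against heterozygotes (limma adjusted p = 1). In that fit 7.21% of all genes were under that p in knockouts against wild types and 2.89% in knockouts against heterozygotes. No fold is given for Reg2, since it was listed at 0 in all heterozygotes and wild types. Reg3a and Reg3b stayed above that p in each comparison.

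**Figure D2:**
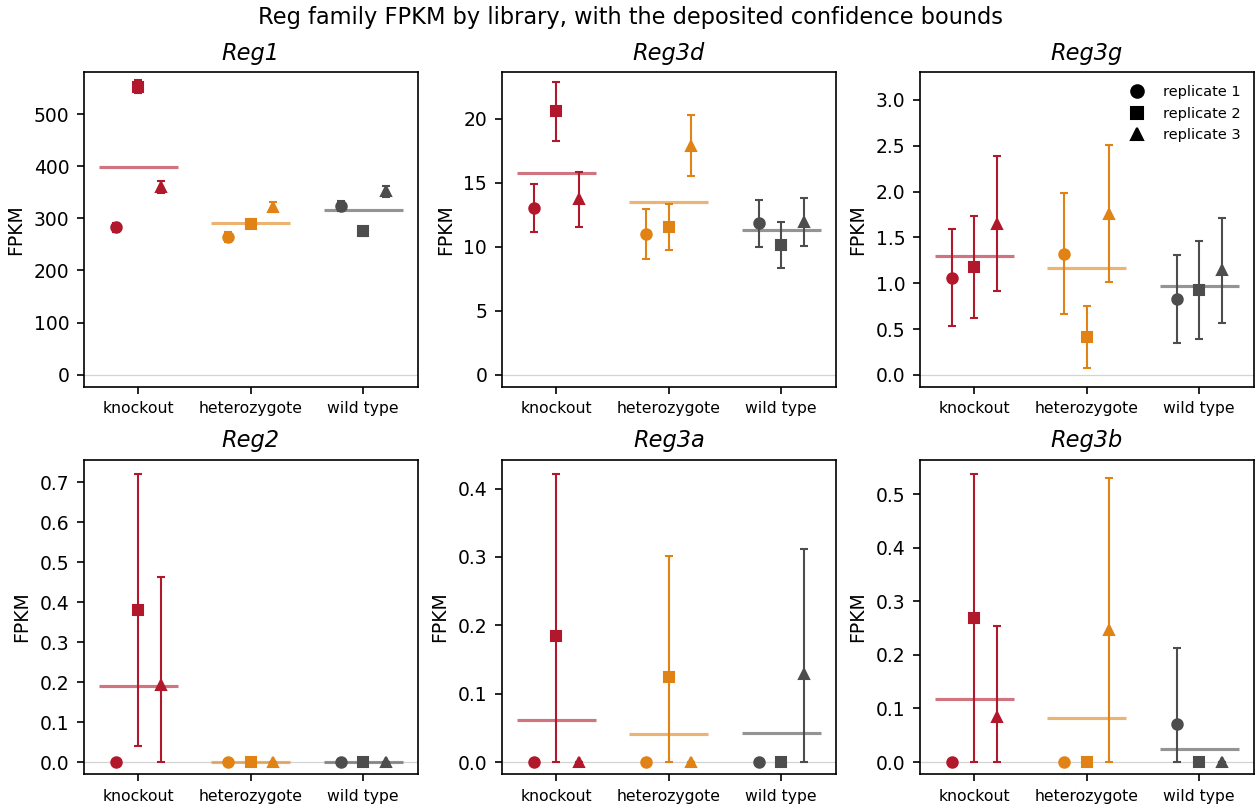
FPKM of each Reg gene in the 9 libraries, grouped as knockout, heterozygote and wild type, with the deposited lower and upper confidence bounds as bars, the group mean as a line and the marker shape giving the replicate number. Knockout replicate 2 is the highest library for Reg1 at 552 FPKM and for Reg3d at 20.6 FPKM, while Reg2, Reg3a and Reg3b stay below 0.4 FPKM.

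The comparison of knockout with wild type asks whether loss of Blinc1 alters expression of the family. Reg1, Reg3d and Reg3g had reached 1 FPKM in at least 3 libraries and could be tested, and 0 of these 3 members passed, as did 0 of 13306 genes tested (0% of genes, limma on log2(FPKM + 1), adjusted p under 0.05). Under an unadjusted p of 0.05 there were 0 members and 1117 genes (8.39%, with 2.6% higher and 5.79% lower in knockouts, or 4.11% and 4.98% after scaling by size factors) by limma, and 1165 genes by voom on the implied fragments, where 0 members were called. Reg1 had a log2 difference of 0.28 (SE 0.21, 95% interval -0.18 to 0.75, limma adjusted p = 0.65). For Reg3d it was 0.42 (SE 0.20, -0.03 to 0.87, limma adjusted p = 0.58), and for Reg3g 0.22 (SE 0.23, -0.29 to 0.73, limma adjusted p = 0.74). The intervals leave room for Reg1 and Reg3d to be up to 0.75 and 0.87 higher on the log2 scale in knockouts. Reg3d was the 1 tested member whose knockout and wild-type libraries did not overlap, which 4.55% of tested genes also showed in that direction and 6.64% in the other. With 3 libraries against 3 the smallest p of an exact two-sided permutation test is 0.1. The median change of all tested genes was -0.03, with 5521 higher and 7785 lower in knockouts.

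The size of these differences depended on single knockout libraries. Without knockout replicate 2 the log2 difference of Reg1 was 0.02 and that of Reg3d 0.23, and without knockout replicate 1 they were 0.50 and 0.54 (limma adjusted p = 0.17 and 0.21). Sex moved with genotype as well. Judged by Xist and Y-linked genes, the 3 knockout libraries were female, while the heterozygotes and the wild types each had 1 female library, replicate 3, and 2 male ones. Within the heterozygotes and within the wild types, that female library was the highest for Reg1, Reg3d and Reg3g alike. With sex as a covariate the knockout differences were 0.13 (SE 0.26) for Reg1, 0.18 (SE 0.21) for Reg3d and -0.05 (SE 0.25) for Reg3g.

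In heterozygotes against wild type, 0 of the 3 tested members passed (limma adjusted p under 0.05), as did 0 of 13306 genes (0%). Under an unadjusted p of 0.05 there were 0 members and 522 genes (3.92%, with 1.35% higher and 2.58% lower in heterozygotes) by limma, and 505 genes by voom. The log2 difference was -0.11 for Reg1 (SE 0.21, interval -0.58 to 0.35, limma adjusted p = 0.97), 0.21 for Reg3d (SE 0.20, -0.24 to 0.65, 0.94) and 0.09 for Reg3g (SE 0.23, -0.43 to 0.60, 0.98). Groups overlapped for each of these members, while 3.54% of tested genes had every heterozygote above every wild type and 7.05% below. Heterozygote replicate 3 carried the Reg3d difference, which was -0.00066 without it.

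In knockouts against heterozygotes, 0 of the 3 members and 0 of 13306 genes (0%) passed by limma, with 0 members and 296 genes (2.22%, with 1.26% higher and 0.969% lower in knockouts) under an unadjusted p of 0.05, and 275 genes by voom. Reg1 had a log2 difference of 0.40 (SE 0.21, interval -0.07 to 0.86), Reg3d of 0.22 (SE 0.20, -0.23 to 0.66) and Reg3g of 0.13 (SE 0.23, -0.38 to 0.64), each with a limma adjusted p of 1. Groups overlapped for all 3, against 3.48% of tested genes with every knockout above every heterozygote and 2.43% below. Without knockout replicate 2 the value was 0.13 for Reg1 and 0.02 for Reg3d. Without knockout replicate 1 it was 0.61 (SE 0.17) for Reg1 and 0.33 (SE 0.21) for Reg3d (limma adjusted p = 0.53 and 0.65). Without heterozygote replicate 3 the value was 0.47 for Reg1 and 0.42 for Reg3d. With sex as a covariate it was 0.25 for Reg1 and -0.03 for Reg3d. The 3 comparisons share libraries pairwise, so their values are not independent.

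**Figure D3:**
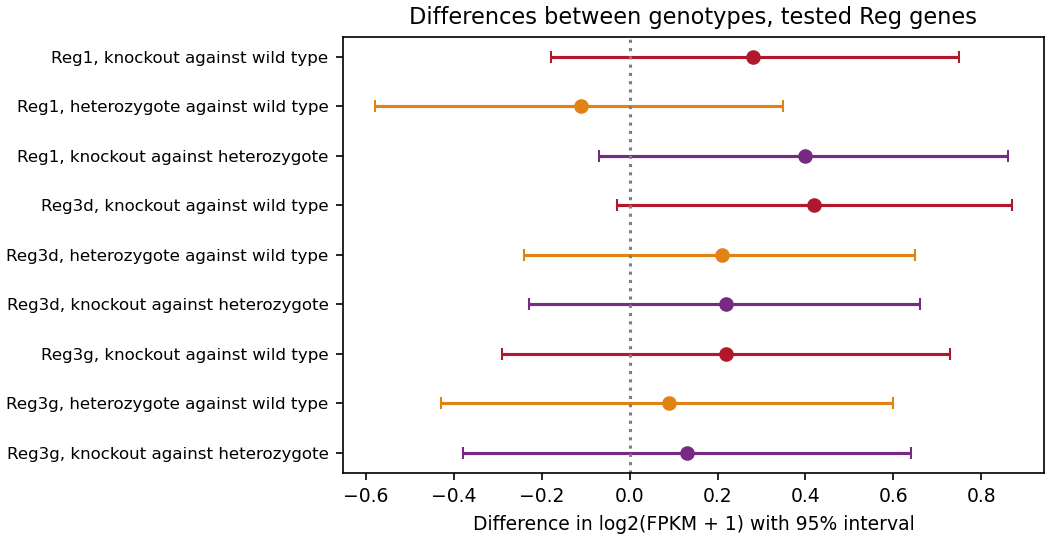
Differences in log2(FPKM + 1) with 95% intervals from limma for the 3 tested Reg genes in the 3 comparisons, first group minus second. All 9 intervals include 0, and the one for Reg3d in knockout against wild type, -0.03 to 0.87, comes closest to leaving it out.

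Reg1 and Reg3d are genes of acinar cells in the mature pancreas, and acinar secretory genes varied between the same libraries. For 23 acinar genes at or above 1 FPKM in every library, the median log2 level relative to the wild-type mean was -0.07, 0.61 and 0.12 in knockout replicates 1, 2 and 3. It was -0.12, 0.33 and 0.23 in the heterozygotes and -0.10, 0.11 and -0.03 in the wild types. Knockout replicate 2 was thus high for acinar genes in general, with 22 of 23 above their wild-type mean, and 5 loci in it had too many reads to be estimated, against 0 to 2 in the other libraries. On the same scale Reg1 was at -0.15, 0.81 and 0.19 in the knockout libraries, -0.25, -0.12 and 0.03 in the heterozygotes and 0.04, -0.20 and 0.16 in the wild types. After subtraction of the acinar median, Reg1 stood at -0.08, 0.21 and 0.07 in the knockouts, against 0.13, -0.31 and 0.19 in the wild types. In heterozygote replicate 2, 22 of 23 acinar genes were above their wild-type mean as well, while Reg1 stood at -0.45 after subtraction. Reg3d after subtraction stood at 0.28, 0.26 and 0.16 in knockouts, 0.08, -0.29 and 0.44 in heterozygotes, and 0.16, -0.26 and 0.11 in wild types, so the groups overlapped. The part of acinar content in the Reg1 and Reg3d values was not tested, and in bulk tissue fewer cells of a type and less RNA per cell cannot be told apart.

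**Figure D4:**
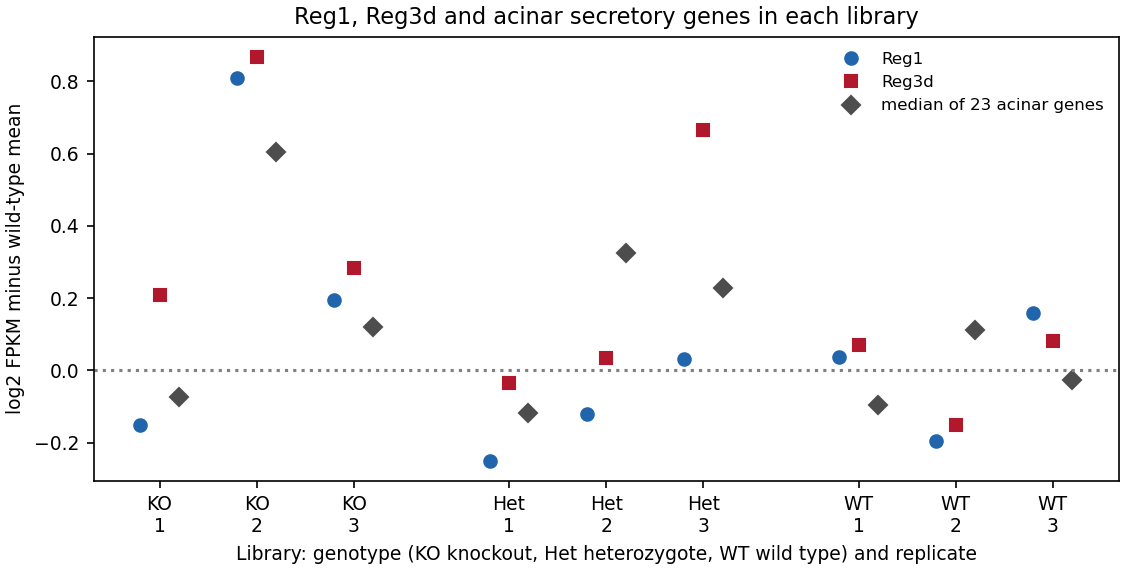
Log2 FPKM minus the wild-type mean for Reg1, Reg3d and the median of 23 acinar secretory genes, in each library. In knockout replicate 2 the 3 points lie at 0.81, 0.87 and 0.61, while in heterozygote replicate 2 the acinar median is at 0.33 and Reg1 at -0.12.

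Of 30 acinar enzyme and secretory genes listed, 3 were left out for failed estimates and 27 were tested. In knockouts 19 had higher and 8 lower values than in wild types, 0 passed limma's test, 0 had an unadjusted p under 0.05, and the median log2 change was 0.17. Without knockout replicate 2, a fit added after seeing the data, 13 were higher and 14 lower (median -0.02). Without knockout replicate 1 the median was 0.38, with 11 genes higher and 1 lower at an unadjusted p under 0.05 and 0 passing, in a fit where 19.8% of all tested genes were under that p (4.92% higher and 14.8% lower). Clps, the cofactor of pancreatic lipase, averaged 17900 ± 5560 FPKM in knockouts and 14100 ± 1260 in wild types (SD, n = 3 each). Carboxypeptidase A1, encoded by Cpa1, was at 9420 ± 2100 FPKM in knockouts and 8240 ± 353 in wild types. All 6 acinar transcription factor genes had higher means in knockouts (median 0.26), again with 0 passing, and 4 of the 6 had an unadjusted p under 0.05, as did 2.6% of all tested genes in that direction. Without knockout replicate 2 all 6 were again higher (median 0.20), 1 of them with an unadjusted p under 0.05, and with sex as a covariate the same counts came out at a median of 0.26. Xbp1, a regulator of secretory capacity, was at 455 ± 35.9 FPKM in knockouts and 398 ± 39.5 in wild types, and Bhlha15, a factor of acinar maturation, at 147 ± 16.5 and 130 ± 5.68. Rbpjl, the partner of Ptf1a in mature acinar cells, averaged 185 ± 68.8 FPKM in knockouts, 189 ± 24.2 in heterozygotes and 147 ± 26.2 in wild types (SD, n = 3 each). Ptf1a, chosen after seeing its values, measured 85.24, 117.8 and 103 FPKM in knockouts, 92.21, 101.4 and 83.86 in heterozygotes, and 74.37, 67.58 and 85.25 in wild types. In heterozygotes against wild type the acinar enzyme list had 18 genes higher and 9 lower (median 0.12), and in knockouts against heterozygotes 18 and 9 (median 0.08), with 0 passing in either.

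Receptor genes of the signals known to induce the family were expressed at unlike levels, while ligand genes were near 0. Il6ra, the IL-6 receptor gene, was at 0.7445 to 2.065 FPKM over the 9 libraries. It ranged over 0.7445 to 1.085 FPKM in knockouts, 0.9067 to 1.055 in heterozygotes and 1.147 to 2.065 in wild types. Every knockout was thus below every wild type, as for 6.64% of tested genes, and every heterozygote too, as for 7.05%. Il17ra was at 2.549 to 3.46 FPKM and Il6st at 12.67 to 17.47, these 3 genes being chosen after seeing their values. Of 14 genes listed for signalling by the IL-6 family, IL-22 and IL-17, 10 were tested, with 3 higher and 7 lower in knockouts than in wild types and 0 passing by limma (median -0.10, 2 lower at an unadjusted p under 0.05). Of all 13306 tested genes 7785 were lower, and 5.79% were lower at that p. Il10rb and Il22ra1, the chains of the IL-22 receptor, averaged 42.3 ± 3.37 and 18.3 ± 0.533 FPKM in knockouts and 39.5 ± 3.38 and 16.7 ± 1.02 in wild types (SD, n = 3 each). Jak1, a kinase of these receptors, was at 32 ± 0.845 FPKM in knockouts and 34.4 ± 2.27 in wild types. The ligand genes, chosen after seeing their values, were low throughout. Il22 did not exceed 0.0855 FPKM, Il6 0.233 FPKM or Il11 0.552 FPKM in any of the 9 libraries, and Il17a was listed at 0 in each. Stat3, likewise chosen after seeing its values, ranged over 12.7 to 15.6 FPKM in knockouts, 14.2 to 15.8 in heterozygotes and 15.2 to 18.0 in wild types. In heterozygotes against wild type 3 of the 10 were higher and 7 lower (median -0.13), and in knockouts against heterozygotes 4 and 6 (median -0.02), with 0 passing. Of all 13306 tested genes 7594 and 7361 were lower in these comparisons.

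Extl3, the proposed receptor gene (mm9 chromosome 14, 65670896 to 65716943), measured 41.4, 48.6 and 48.2 FPKM in knockouts, 44.1, 44.1 and 42.8 in heterozygotes, and 44.7, 40.5 and 41.6 in wild types. The knockout and wild-type values overlapped (log2 difference 0.12, SE 0.07, limma adjusted p = 0.59). Reg4, the relative outside the cluster (mm9 chromosome 3, 98026079 to 98040671), did not exceed 0.151 FPKM in any library.

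Markers of injury and of gut tissue, in which Reg3 genes are abundant, differed widely in level. Of 14 acute phase and injury genes, 8 were tested and 0 passed in any comparison, with 1 higher in knockouts than in wild types at an unadjusted p under 0.05, as were 2.6% of all tested genes. The serum amyloid gene Saa1, picked on its values, was listed at 0 in all libraries, and 5 of the 14, including it, stayed below 1 FPKM. The abundant members Clu, a secreted chaperone, and Spp1, also a duct gene, were at 919 ± 184 and 398 ± 31 FPKM in knockouts and 721 ± 64 and 432 ± 30.8 in wild types. S100a9, a gene of neutrophils, was at 19.4 ± 6.12 FPKM in knockouts and 13.5 ± 8.29 in wild types. Of 10 intestinal markers measured, 6 stayed below 1 FPKM, including the intestinal transcription factor gene Cdx2, also picked on its values, at 0.25 FPKM or less. Their summed level was 11.67 to 15.34 FPKM in knockouts, 9.064 to 14.26 in heterozygotes and 12.67 to 19.14 in wild types, most of it from Vil1, a gene of brush borders, Tff3 and Lgals4. Stomach markers summed to 33.86 to 44.32 FPKM in knockouts, 30.8 to 51.17 in heterozygotes and 32.23 to 45.9 in wild types. Most of that was Tff2, with Atp4a and Sox2 next, and 8 of 10 stayed below 1 FPKM in all libraries.

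The labelled tissue carried its markers in all groups. Summed acinar enzyme genes reached 38076 to 64394 FPKM in knockouts, 43385 to 52672 in heterozygotes and 40956 to 43755 in wild types. The 7 islet hormone genes summed to 3028 to 4829 FPKM in knockouts, 3136 to 4839 in heterozygotes and 3965 to 5586 in wild types. Immune markers summed to 218.7 to 256.3 FPKM in knockouts, below the 269.5 to 307.3 of heterozygotes and the 278.6 to 311.1 of wild types. Of single tested genes, 6.64% had every knockout below every wild type and 2.43% below every heterozygote. The leading immune genes C1qa and Lyz2 overlapped between groups, with C1qa at 133.7 to 146.6 FPKM in knockouts and 144.2 to 169.2 in wild types. The next, C1qb, was at 21.44 to 32.06 FPKM in knockouts and 34.29 to 43.22 in wild types. Mesenchyme markers were 1153 to 1669, 1345 to 1546 and 1457 to 1932 FPKM in knockouts, heterozygotes and wild types. Liver markers summed to 317.7 to 462.2 FPKM in knockouts, 294.9 to 476 in heterozygotes and 408 to 589.2 in wild types. Most of that was Ttr, at 246 to 489.9 FPKM, with Afp and Trf next. Ttr largely rose and fell with the islet hormone gene Ins2, a pair picked on its values. The 2 genes were at 409.6 and 2524 FPKM in knockout replicate 1 and at 259.7 and 1191 FPKM in knockout replicate 3. The tissue behind the summed liver markers was not tested. Wild-type replicate 2 stood apart for some liver genes, picked here on their values. Alb was at 36.45 FPKM against 1.678 to 5.041 in the other libraries, Ahsg at 4.763 against at most 0.7156 and Apoa1 at 7.427 against at most 1.48. Afp and Trf were also highest there, at 40.64 and 27.36 FPKM. Serpina1a (12.49 FPKM, against 20.2 in knockout replicate 2) was not. Nor were Fgb (1.585, against 1.826 in wild-type replicate 1) and Ttr (458.4, against 489.9 in wild-type replicate 3). Wild-type replicate 2 was the lowest wild type for Reg1 and Reg3d. Without it their differences between knockouts and wild types were 0.19 and 0.35. Erythroid markers spanned 5080 to 7070 FPKM in knockouts, 2594 to 5457 in heterozygotes and 4778 to 6979 in wild types. Beta cell genes were 84.06 to 109.1, 89.45 to 108.6 and 97.4 to 117.3 FPKM in knockouts, heterozygotes and wild types, and duct and trunk genes 616.9 to 676.3, 615.1 to 713.5 and 658.7 to 752. In knockouts against wild types all 8 tested mesenchyme genes were lower (median log2 change -0.36, 3 at an unadjusted p under 0.05), as were all 8 tested immune genes (median -0.30, 3). Of 7 islet hormone genes 5 were lower (median -0.45, 1), of 8 tested beta cell genes 6 (median -0.39, 1) and of 7 tested liver genes 6 (median -0.43, 1). Of all 13306 tested genes 7785 were lower, and 5.79% were lower at that p. Duct and trunk genes had a median of -0.05 and erythroid genes of 0.07, and 0 genes of any of these lists passed limma's test. Without knockout replicate 2 the medians were -0.24 for mesenchyme, -0.24 for immune, -0.38 for islet hormone, -0.31 for beta cell and -0.38 for liver genes. The part of these markers in the Reg values was not tested. Blinc1 was not analysed here under that name, so its level did not check the genotype labels.

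The genes with the most similar profile across the 9 libraries were found by Pearson correlation of log2(FPKM + 1), as a description of these libraries with no test. For Reg1 they were Bcar3 (r = 0.961, Spearman 0.900), Gm13011 (0.961 and 0.900) and Cenpq (0.958 and 0.917). For Reg3d they were Glt1d1 (0.941 and 0.967), Dnajc28 (0.934 and 0.900) and again Cenpq (0.906 and 0.933), and for Reg3g Rhebl1 (0.960 and 0.883), Slc35a4 (0.938 and 0.950) and Nit1 (0.884 and 0.833). Each was picked as the best of all tested genes over few libraries, all of 1 tissue and stage. Between members, Reg1 and Reg3d had r = 0.79 (Spearman 0.75) over 9 libraries. By likeness to Reg1, Reg3d ranked 142 among tested genes and Reg3g 3095. For Reg1 and Reg3d r was 0.39 without knockout replicate 2 and heterozygote replicate 1, the libraries farthest from the Reg1 median. Leaving out such libraries narrows the range and can itself lower r, so what their likeness rests on was not tested. Reg1 and Reg3g had r = 0.24 (Spearman 0.23), and 0.57 without the same libraries. Reg3d and Reg3g had r = 0.48 (Spearman 0.57), and 0.40 without knockout replicate 2 and heterozygote replicate 3. With the farthest libraries left out, the order of the pairs thus changed.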

How the data were processed

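The authors deposited, per library, FPKM with lower and upper confidence bounds and a status word, as the file headers show. TopHat 2.0.4 aligned the reads to mm9 with up to 4 mismatches and 10 hits per read, per the design text. The submitters' processing notes also name Cufflinks, CASAVA 1.8.2 and DESeq. Which annotation was used, and whether strand was, is not given in the sources used here. Each table listed 23699 loci. FPKM of the 248 symbols with several loci were summed, and 4 symbols with estimates failed for excess data were left out.

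The upper bound was read as 2 standard errors above the value, which implies a fragment number per gene. Implied totals were 19532984 to 25437255 fragments per library, and 73.85% to 74.6% of genes with fewer than 500 fragments came out whole within 0.05. Intervals and fragments cover counting error only.

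Genes reaching 1 FPKM in at least 3 libraries (13306) were tested two-sided with limma 3.58.1 (R 4.3.3, intensity trend) on log2(FPKM + 1), all 9 libraries in 1 fit, with Benjamini-Hochberg adjustment at 0.05. This scale understates changes of low genes. The fit was tested on simulated data. Alignments used Biopython 1.88. Alternatives were the fit of only the groups compared, other pseudocount and filters, size factors, voom, a replicate block, sex, and leaving out each library. The members and lists were chosen with earlier results of these data known. Genes named besides the members are up to 3 per list with the highest mean level, and the 3 most similar per tested member; other names are marked as chosen after seeing their values. One gene that this rule names is not reported here.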

Additional observations from a re-analysis of the deposited data

How the results depend on the processing

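The number of Reg members called stayed at 0 in each of the 3 comparisons under all 17 alternatives run. Over those alternatives the log2 difference between knockouts and wild types ran from 0.02 to 0.50 for Reg1 (limma adjusted p 0.17 to 0.99) and from 0.18 to 0.54 for Reg3d (0.21 to 0.97). Directions turned in 6 cases. With sex as a covariate, Reg3g was at -0.05 in knockouts against wild types and at -0.13 in knockouts against heterozygotes, and Reg3d at -0.03 in knockouts against heterozygotes. In heterozygotes against wild types, leaving out 1 library moved Reg3d between -0.00066 (without heterozygote replicate 3) and 0.33 (without heterozygote replicate 1), and Reg3g between -0.12 (without heterozygote replicate 3) and 0.37 (without heterozygote replicate 2). In knockouts against heterozygotes, Reg3g moved between -0.15 (without heterozygote replicate 2) and 0.33 (without heterozygote replicate 3). All 6 turned values lie within 1 standard error of 0, and the cause was not tested. Same-numbered libraries of different genotype correlated at -0.19 to 0.29 in their deviations from group means. The same number was the best match in knockouts against heterozygotes for replicates 1 and 2 (0.29 and 0.27). It was also the best match in heterozygotes against wild types for replicate 3 (0.18), and in no other case. With 3 libraries per genotype this cannot settle whether the numbers pair them. With the number as a replicate block, 0 members were called and Reg3d was at 0.42 in knockouts against wild types (limma adjusted p = 0.57). Over all genes, 0 were called in each comparison, and at most 1, 7 and 4 under an alternative, in knockouts against wild types, heterozygotes against wild types and knockouts against heterozygotes. Without the filter on low values all 6 members were tested and 0 called, with 1, Reg2, under an unadjusted p of 0.05 in knockouts against wild types and in knockouts against heterozygotes, as were 7.21% and 2.89% of all genes. Other alternatives put other members under that p by limma, here with the share of all genes. In knockouts against wild types Reg3d was under it with only the groups compared (7.17%) and without heterozygote replicate 3 (7.5%). Without knockout replicate 1 both Reg1 and Reg3d were (19.8%). In heterozygotes against wild types Reg3g was, without heterozygote replicate 2 (4.15%). In knockouts against heterozygotes Reg1 was without knockout replicate 1 (8.94%) and Reg3d without heterozygote replicate 3 (1.83%). Genes under an unadjusted p of 0.05 in knockouts against wild types numbered 1117 in all libraries. Leaving out knockout replicate 1 gave 2628, knockout replicate 2 gave 399 and knockout replicate 3 gave 603. Leaving out wild-type replicate 1 gave 717, wild-type replicate 2 gave 416, and sex as a covariate 558. In heterozygotes against wild types leaving out wild-type replicate 2 gave 277 and wild-type replicate 3 gave 872, against 522. In knockouts against heterozygotes they numbered 1189 without knockout replicate 1, 185 without knockout replicate 2 and 557 without heterozygote replicate 2, against 296. At the stricter filter of 5 FPKM Reg3g was not tested. Depth limits Reg2, Reg3a and Reg3b, with 9 fragments or fewer each over all libraries.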
